A study of Mus musculus with 2 samples.

Results

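The genes described here are the 3 Mir124a genes and the 3 Mir9 genes of the mouse, 6 of the 2202 microRNA genes in the count files. They were chosen by name, with Ensembl identifiers matched to symbols in GENCODE M21. Host transcripts are not among them. MicroRNA sequencing, with fragments under 30 nt per the labels, was run on total RNA of hippocampus from male B6CASTF1/J mice aged 10 days, hybrid offspring of a cross between C57BL/6J and CAST/EiJ. The labels give 1 group of 2 biological replicates and no treatment or mutation, so the data hold levels and the spread between libraries but no contrast of conditions. Each replicate is labelled with 3 males, with different animal numbers but a shared donor identifier, so the spread between these samples may in part be technical.

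MicroRNAs are cut from hairpin precursors and guide repression of transcripts that match their seed, the bases 2 to 8 of the mature strand. miR-124 is the classical neuron-enriched microRNA of vertebrates. It accumulates as neurons differentiate and represses transcripts of non-neuronal cells, such as that of the splicing factor Ptbp1. miR-9 is expressed in neural progenitors and neurons and is known for repressing the progenitor factor Nr2e1. Both its arms give functional microRNAs, and the neuronal gene silencer REST and its partners are among their known targets. Each of the microRNAs is made from 3 separate genes in the mouse, and for that reason the sequences of the copies decide which reads can be given to a single gene.

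The mature sequences of miR-9 are shown first because they are the same in all 3 Mir9 genes (RefSeq, GRCm38.p6, 5′ to 3′). Capitals mark the seed, which no other mature microRNA name among the 1679 in the RefSeq table shares.
miR-9-5p: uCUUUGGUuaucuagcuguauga
miR-9-3p: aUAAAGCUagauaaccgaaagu

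The hairpins of the Mir9 genes follow, with the mature arms in capitals, because the lower-case bases are what tells the copies apart. They lie at chr3:88215598-88215686 (Mir9-1), chr13:83738814-83738885 (Mir9-2) and chr7:79505264-79505353 (Mir9-3), all on the plus strand.
Mir9-1: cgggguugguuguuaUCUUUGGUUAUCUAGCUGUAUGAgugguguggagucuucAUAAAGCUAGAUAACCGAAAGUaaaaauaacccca
Mir9-2: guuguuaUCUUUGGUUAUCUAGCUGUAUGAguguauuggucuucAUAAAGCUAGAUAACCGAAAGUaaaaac
Mir9-3: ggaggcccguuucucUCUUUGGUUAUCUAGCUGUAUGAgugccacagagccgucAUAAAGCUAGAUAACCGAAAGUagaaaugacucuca

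Mir9-1 and Mir9-2 were the closest pair, with 70 identical bases, or 97.2% of the 72 bases of Mir9-2. Mir9-3 shared 71 bases with Mir9-1, or 79.8% of the shorter hairpin, and 64 bases with Mir9-2, or 88.9%. A read within a mature sequence therefore fits all 3 genes, and only bases beyond it separate them. After miR-9-5p the copies share 3 bases and differ at the base after these, as the 6 following bases in capitals show.
Mir9-1: ucuuugguuaucuagcuguaugaGUGGUG
Mir9-2: ucuuugguuaucuagcuguaugaGUGUAU
Mir9-3: ucuuugguuaucuagcuguaugaGUGCCA

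After miR-9-3p, Mir9-3 separates sooner than the others, again shown by the 6 following bases in capitals.
Mir9-1: auaaagcuagauaaccgaaaguAAAAAU
Mir9-2: auaaagcuagauaaccgaaaguAAAAAC
Mir9-3: auaaagcuagauaaccgaaaguAGAAAU

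A read that starts at the first base of miR-9-5p had to reach 4 bases past the mature end, a length of 27 nt, to fit 1 of the 3 genes alone. From the first base of miR-9-3p, 2 extra bases (24 nt) sufficed for Mir9-3, while Mir9-1 and Mir9-2 needed 6 (28 nt). Before the first base of miR-9-5p, 1 extra base set Mir9-3 apart. Mir9-2 shared all 7 bases that its annotated hairpin has there with Mir9-1, so Mir9-1 needed at least 8. Whether the base before these differs cannot be told from the hairpins. Before miR-9-3p, 3 extra bases were needed for Mir9-3 and 7 for each of the other copies.

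Reads that fit several places were in no gene count. They numbered 4020799 in replicate 2 and 4660508 in replicate 1, or 39.8% and 37.7% of all reads, against 3495401 and 4815761 sense counts on genes. Every level below is a count of reads assigned to 1 gene alone and can lie far below the amount of the microRNA. How many of the reads that fit several places came from miR-124 or miR-9 cannot be told from the files. Other hippocampal microRNAs were abundant, among them Mir137 with 4713 ± 852 CPM and Mir132 with 7062 ± 4065 CPM (counts per 1000000 counts on genes, SD, n = 2 for both). The liver microRNA Mir122 stood at 31.5 CPM in replicate 2 and at 39.5 CPM in replicate 1. The 5 striated muscle microRNAs summed to 32.6 CPM in replicate 2 and 102 CPM in replicate 1, all of it from Mir206. The other 4, Mir1a-1, Mir1a-2, Mir133a-1 and Mir133a-2, had 0 counts in both. These are numbered copies, and reads that fit more than 1 copy were in no gene count. Their 0 counts therefore do not show that such RNA was absent. Levels of the Mir9 genes given below were of the order of Mir122 and Mir206 or lower.

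Among the Mir9 genes, Mir9-3 held the most uniquely assigned reads and Mir9-2 the fewest, in both libraries. Mir9-3, in an intron of the noncoding transcript Mir9-3hg, had 208 counts in replicate 2 and 415 in replicate 1. These are 59.5 CPM (95% interval 51.7 to 68.2) in replicate 2 and 86.2 CPM (78.1 to 94.9) in replicate 1. Mir9-1, in an intron of the long noncoding gene Gm3764, had 117 counts in replicate 2 and 82 in replicate 1. These are 33.5 CPM (27.7 to 40.1) in replicate 2 and 17.0 CPM (13.5 to 21.1) in replicate 1. Mir9-2, in an exon of the long noncoding gene C130071C03Rik, had 11 counts in replicate 2 and 13 in replicate 1. Its levels were 3.15 CPM (1.57 to 5.63) in replicate 2 and 2.70 CPM (1.44 to 4.62) in replicate 1. The intervals of the 3 genes did not overlap within either library. Mir9-3 had 1.78 times the counts of Mir9-1 in replicate 2 and 5.06 times in replicate 1, and it had 18.9 times those of Mir9-2 in replicate 2 and 31.9 times in replicate 1.

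The Mir124a genes were close to the limit of detection in both libraries. Mir124a-1, at chr14:64590657-64590741 in an exon of Mir124a-1hg, had 11 counts in replicate 2 and 13 in replicate 1. Its levels were 3.15 CPM in replicate 2 and 2.70 CPM in replicate 1, the same counts as those of Mir9-2. Mir124a-3, at chr2:180894040-180894107 with no host on its strand, had 4 counts in each library, or 1.14 CPM in replicate 2 and 0.831 CPM in replicate 1. Mir124a-2, at chr3:17795662-17795770 and partly within an exon of Mir124-2hg, had 2 counts in replicate 2 and 0 in replicate 1, where a count of 0 allows up to 0.623 CPM. For a microRNA known as abundant in neurons, these are few reads, and they are reads assigned to 1 gene alone. Per count of the Mir124a genes, the libraries held 236518 reads that fit several places in replicate 2 and 274148 in replicate 1. For the Mir9 genes these numbers were 11967 in replicate 2 and 9138 in replicate 1. Each divides the library's whole total of such reads by the family's counts. They therefore do not tell how many of those reads came from either family.

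**Figure D1:**
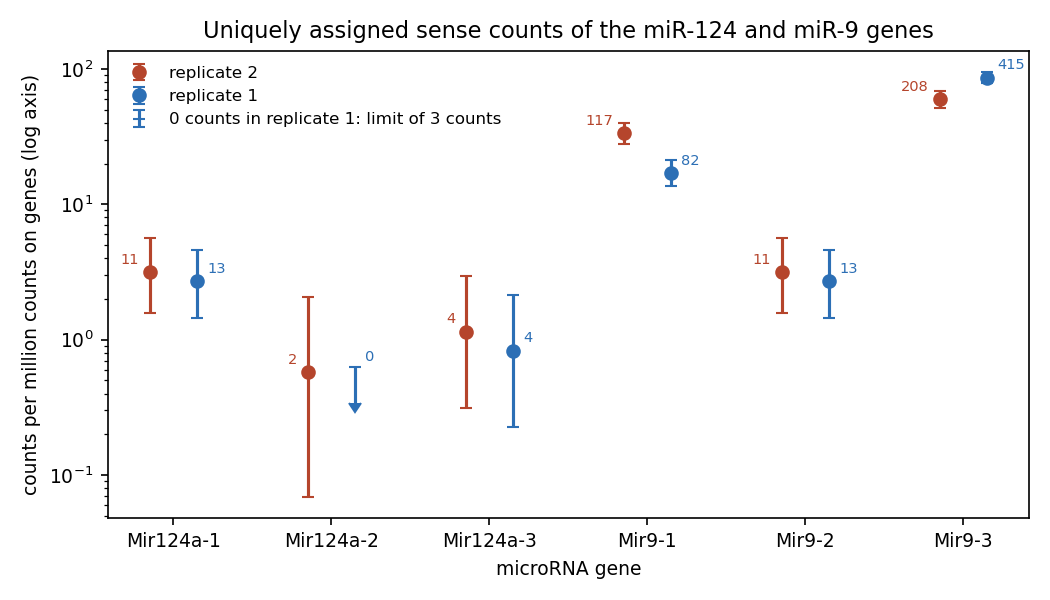
Levels of the 6 genes in CPM (log axis), with replicate 2 left of replicate 1. Bars are exact 95% intervals, small numbers are counts, and the arrow marks the limit of 3 counts where Mir124a-2 had 0 counts. Mir9-3 lay highest in both libraries, and Mir9-2 and Mir124a-1 had the same counts.

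In order of mean level, Mir9-3 had 72.8 ± 18.9 CPM, followed by Mir9-1 with 25.2 ± 11.6 CPM (SD, n = 2 for both). Mir9-2 and Mir124a-1 each had 2.92 ± 0.316 CPM, and Mir124a-3 had 0.987 ± 0.222 CPM (SD, n = 2 for each). The intervals of Mir124a-1 and Mir124a-3, and those of Mir124a-3 and Mir124a-2, overlapped in both libraries, so neighbours in the order of the Mir124a genes were not separated at this depth. Mir124a-1 and Mir124a-2 overlapped in replicate 2 but not in replicate 1, where Mir124a-1 lay between 1.44 and 4.62 CPM and the limit for Mir124a-2 was 0.623 CPM. By rank of counts among all 2202 genes, Mir9-3 stood at 237 in replicate 2 and 216 in replicate 1, while Mir124a-1 stood at 430 in replicate 2 and 432 in replicate 1. The genes nearest in level, by distance of log2(CPM + 1) over the 2 libraries, were Mir194-2 (distance 0.16) and Mir3085 (0.19) for Mir9-1, and Mir5099 (0.24) and Mir1198 (0.27) for Mir9-3. For Mir9-2 and Mir124a-1 they were Mir6956 (0.13) and Mir146b (0.18).

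The next question was how far the 2 libraries differed for these genes. Of the 6, 4 had the 10 counts in total needed for the comparison, and 0 were called, which took a Benjamini-Hochberg adjusted p under 0.05 from an exact binomial test of both sides together with a log2 ratio of 1 or more in size. Of all 540 genes tested, 101 were called, or 18.7%. By the adjusted p alone, 2 members passed, Mir9-1 and Mir9-3, where 55.7% of all genes tested did. They lay on opposite sides. Mir9-1 had a log2 ratio of replicate 2 over replicate 1 of 0.97 (adjusted p = 6.37e-06 by the exact binomial test), just inside the minimum of 1. Mir9-3 had a log2 ratio of -0.53 (adjusted p = 2.79e-05 by the same exact test). Mir9-2 and Mir124a-1, with log2 ratios of 0.23 each, did not pass (adjusted p = 0.884 for both, exact binomial test). The median log2 ratio was 0.23 over the 4 members tested and 0.17 over all genes tested.

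The test covers counting error only, and the spread between these libraries was wider than that for most genes. Over all tested genes the lower and upper quartiles of the log2 ratio were -0.34 and 0.70, so Mir9-1 and Mir9-3 each lay a little outside the middle of the distribution, on opposite sides. An absolute log2 ratio at least as large as that of Mir9-1 was reached by 25.6% of tested genes, and one at least as large as that of Mir9-3 by 50.4%. In tissue samples, fewer cells of a type and less RNA per cell cannot be told apart.

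Summed over copies, the Mir9 genes had 336 counts in replicate 2 and 510 in replicate 1, or 96.1 CPM (86.1 to 107) and 106 CPM (96.9 to 116). Their log2 ratio was -0.14 (p = 0.349 by the exact binomial test, adjusted over the 2 families). That call depended on the library size used. With DESeq2 size factors the log2 ratio was -0.31 (raw p = 0.00209, exact binomial test). The Mir124a genes together had 17 counts in each library, or 4.86 CPM (2.83 to 7.79) in replicate 2 and 3.53 CPM (2.06 to 5.65) in replicate 1. Their log2 ratio was 0.46 (p = 0.387 by the exact binomial test, adjusted over the 2 families).

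The makeup of the Mir9 counts differed between the libraries, a comparison that no library scaling can change. Mir9-3 held 61.9% (56.5 to 67.1) of the Mir9 counts in replicate 2 and 81.4% (77.7 to 84.7) in replicate 1. Mir9-1 held 34.8% (29.7 to 40.2) in replicate 2 and 16.1% (13.0 to 19.6) in replicate 1. Mir9-2 held 3.27% (1.65 to 5.78) in replicate 2 and 2.55% (1.36 to 4.32) in replicate 1. The intervals of Mir9-3 and of Mir9-1 did not overlap between libraries, and those of Mir9-2 did. The 3 shares differed between these libraries by an exact Fisher-Freeman-Halton test (p = 2.39e-09, adjusted over the 2 families). This compares 2 libraries of 1 group and covers counting error only. By the adjusted p of the exact binomial test alone, 55.7% of all genes tested differed between these libraries. Makeup was compared for these 2 families only, so whether such a shift is unusual cannot be told.

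**Figure D2:**
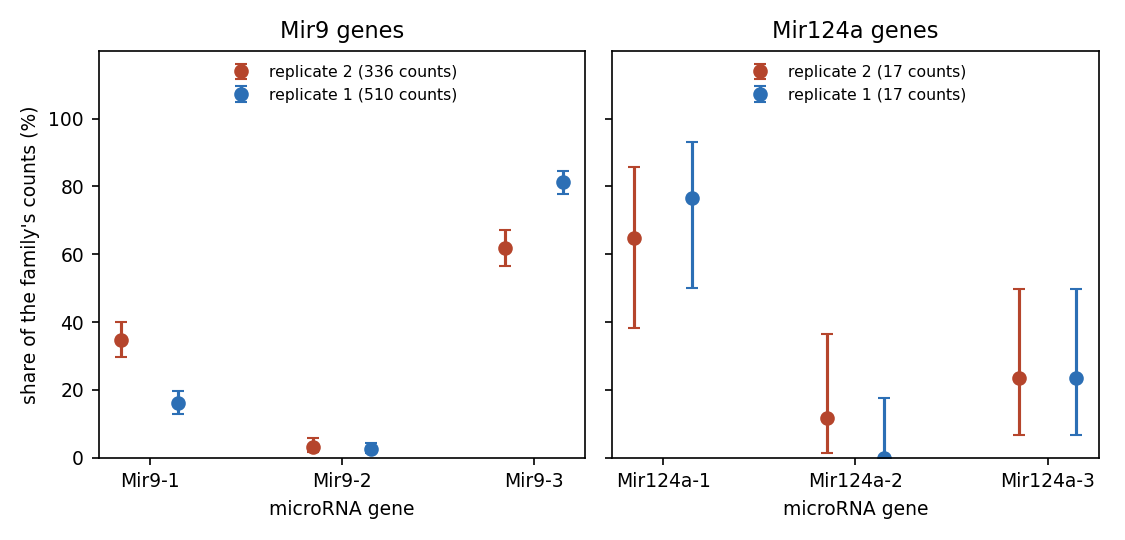
Share of each family's uniquely assigned counts held by each gene, in percent, with replicate 2 left of replicate 1. Bars are exact 95% intervals, or the limit of 3 counts at a count of 0. Mir9-3 held 61.9% in replicate 2 and 81.4% in replicate 1, while the intervals of each Mir124a gene overlapped between the libraries.

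For the Mir124a genes no such difference was detectable with 17 counts a library. Mir124a-1 held 64.7% (38.3 to 85.8) in replicate 2 and 76.5% (50.1 to 93.2) in replicate 1, and Mir124a-3 held 23.5% in both. Mir124a-2 held 11.8% (1.46 to 36.4) in replicate 2 and 0 of 17 counts in replicate 1, which allows a share of up to 17.6%. The exact Fisher-Freeman-Halton test gave p = 0.598, adjusted over the 2 families.

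Summed levels of microRNAs that mark other cell types are given beside this result, with no test. The 3 red blood cell microRNAs summed to 76.4 CPM in replicate 2 and 1229 CPM in replicate 1, and none was at 0 counts. The 7 microRNAs of choroid plexus and ciliated cells summed to 5333 CPM in replicate 2 and 2582 CPM in replicate 1, and the endothelial Mir126a stood at 9301 CPM in replicate 2 and at 14888 CPM in replicate 1. The 2 oligodendrocyte microRNAs summed to 1721 CPM in replicate 2 and 998 CPM in replicate 1. The 4 white blood cell ones, Mir142, Mir223, Mir150 and Mir155, summed to 906 CPM in replicate 2 and 495 CPM in replicate 1. Their part in the makeup of the Mir9 counts was not tested.

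The strand of the counts matters for Mir9-1 alone among the 6 genes. An annotated microRNA gene on the opposite strand, Gm25641 at chr3:88215589-88215696, covers the whole Mir9-1 hairpin. In the unstranded column both genes had 0 counts in both libraries. In the sense column Mir9-1 had its 117 and 82 counts in replicates 2 and 1 and Gm25641 had 0. In the opposite-strand column Gm25641 had 117 and 82 counts, the same numbers, and Mir9-1 had 0. The other 5 genes had equal sense and unstranded counts and 0 counts on the opposite strand. Across the files, 64 genes overlap a microRNA gene of the opposite strand. Of the 38 of these with sense counts, 35 had 0 unstranded counts, as Mir9-1 did.

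Where the copies are alike was measured in windows of 20 bases, the share of each hairpin that occurs at no other annotated microRNA place. In Mir9-3, 58 of 71 windows (81.7%) were at no other place, against 42 of 70 (60.0%) in Mir9-1 and 25 of 53 (47.2%) in Mir9-2. The order of these shares was the order of the counts, with Mir9-3 first and Mir9-2 last. The shares depend on where the annotated hairpins end, and that of Mir9-2 has 72 bases, against 89 for Mir9-1 and 90 for Mir9-3. With 3 genes this order is a description, and its part in the levels was not tested. In Mir9-3 the shared stretches were 26 and 25 bases long, little more than the mature arms, and every shared window was at 2 other places. In Mir9-1 and Mir9-2 each shared stretch was 33 bases long, since these genes also share the bases beside the arms with each other.

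The Mir124a hairpins showed the same layout of 2 shared stretches but no such order. At no other place were 60 of 90 windows (66.7%) in Mir124a-2, 41 of 66 (62.1%) in Mir124a-1 and 25 of 49 (51.0%) in Mir124a-3. Mir124a-2, with the largest share, had the fewest counts of the 3. Joined over windows at any other place, the shared stretches were 30 to 35 bases long. The 35-base stretch, in Mir124a-2, held 7 windows at 2 other places and 9 at 1. A match to a single gene can therefore be shorter than the stretch. The labels give a limit of 30 nt for fragments. Of all 2202 genes, 1087 share a window with another place, and in these genes a median of 35.6% of windows were at no other place, so each of the 6 genes lay above that median.

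**Figure D3:**
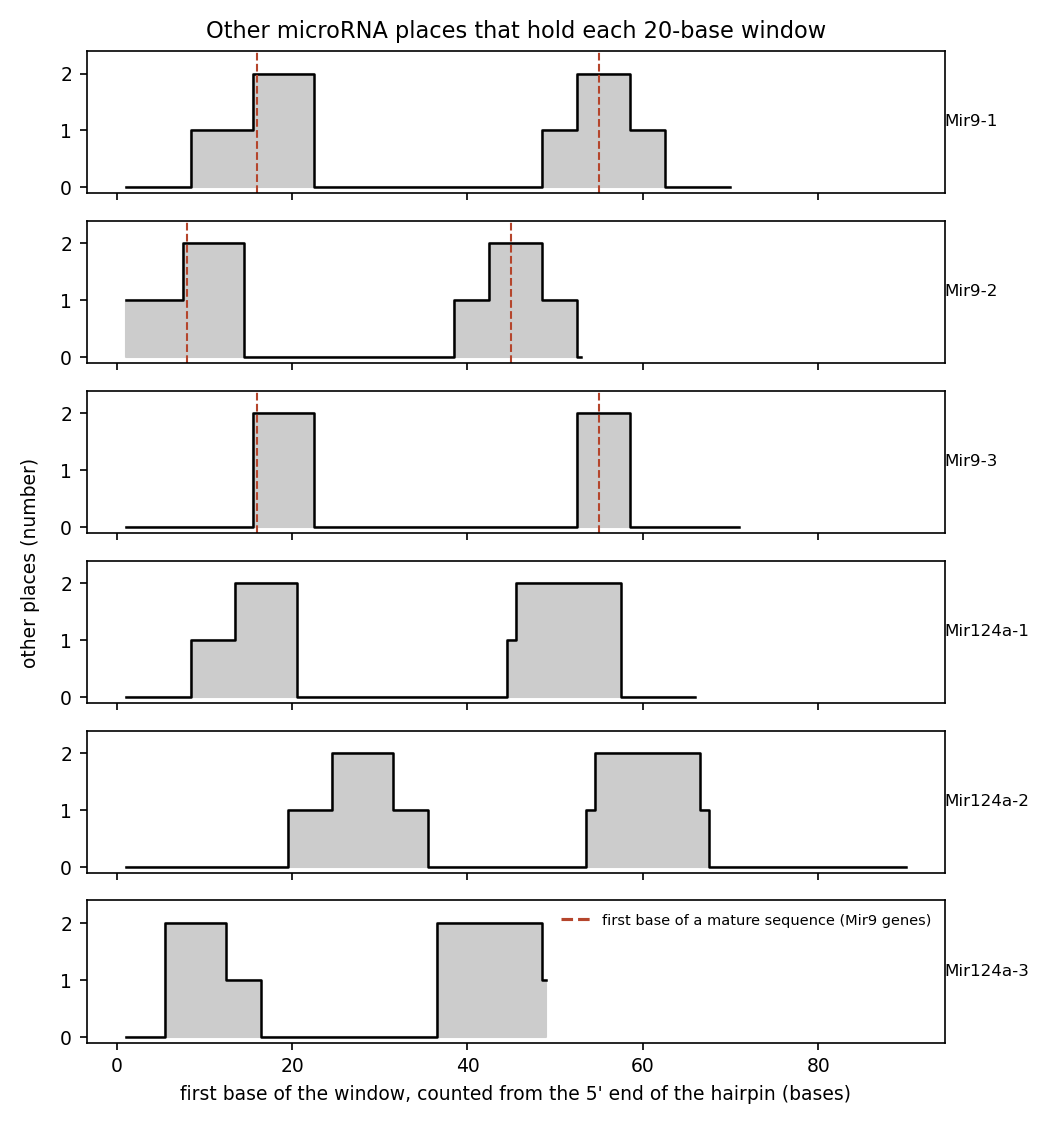
Number of other annotated microRNA places that hold each 20-base window, by the first base of the window, for the 6 hairpins. Dashed lines mark the first base of the mature sequences of miR-9. Every gene has 2 shared blocks, which are narrowest in Mir9-3.

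In 2 cases a host transcript carries a second microRNA close by whose hairpin shares no window with any other place. These genes were named after their values were seen. Mir3078 lies in an exon of Mir124a-1hg, 443 bases from Mir124a-1, and had 124 counts in replicate 2 and 105 in replicate 1. That is 11.3 times the counts of Mir124a-1 in replicate 2 and 8.08 times in replicate 1. Mir3093 lies in an intron of Gm3764, 340 bases from Mir9-1, and had 253 counts in replicate 2 and 430 in replicate 1. That is 2.16 times the counts of Mir9-1 in replicate 2 and 5.24 times in replicate 1. The log2 ratio of Mir3078 was 0.70 and that of Mir3093 was -0.30, and neither was called, as both lay inside the minimum of 1. Both passed the adjusted p alone (0.000641 for Mir3078 and 0.0162 for Mir3093, exact binomial test), as 55.7% of all genes tested did. Mir9-1, at 0.97, and Mir3093 thus lay on opposite sides of 0 although they share a host.

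The neural list, 24 genes chosen from textbook knowledge, places the members among other microRNAs of neurons and brain. The 18 genes beside the members had mean levels of 11.2 to 44583 CPM, and all 18 were tested. The highest were Mir139 with 44583 ± 18050 CPM, Mir149 with 22382 ± 4421 CPM and Mir132 with 7062 ± 4065 CPM (SD, n = 2 for each). Of the 18, 1 was called higher in replicate 2, Mir132, and 1 lower, Mir153, where 11.5% of all tested genes were called higher and 7.22% lower. Their median log2 ratio was -0.02, against 0.17 over all genes tested. The 5 lowest of the 24 genes were the 3 Mir124a genes, Mir9-2 and Mir218-1, with 11.2 ± 2.92 CPM (SD, n = 2).

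Most of the other neural genes with copies differ from the Mir9 genes in keeping a mature sequence of their own. Of the 18 genes, 8 had every listed mature sequence at 1 locus, with levels from 52.9 to 44583 CPM and a median of 3398 CPM. The lowest of the 8, Mir153 with 52.9 ± 49.7 CPM, had a mean below the 72.8 ± 18.9 CPM of Mir9-3 (SD, n = 2 for both). A further 9 had a mature sequence at 2 loci and another at 1 locus, with levels from 11.2 to 5734 CPM and a median of 862 CPM. Among these were Mir138-1 and Mir138-2, with 5734 ± 1892 and 2173 ± 299 CPM, and Mir128-1 and Mir128-2, with 4439 ± 1568 and 1847 ± 836 CPM (SD, n = 2 for each). The remaining gene of the 18, Mir129-1, had its only listed mature sequence at 2 loci, and its level was 289.8 ± 10.9 CPM (SD, n = 2). The number of reads of different microRNAs depends on more than copy number, and equal capture was not analysed.

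**Figure D4:**
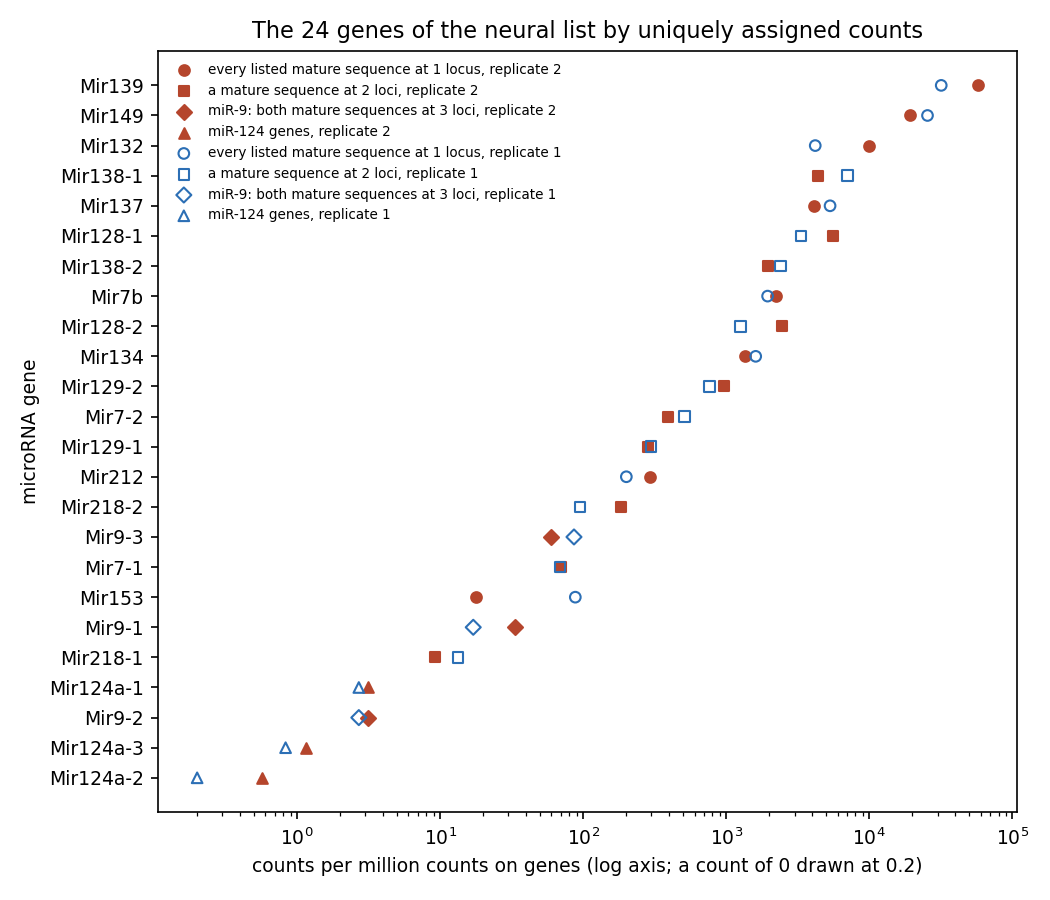
Levels of the 24 genes of the neural list in CPM (log axis), ordered by mean level, with replicate 2 filled and replicate 1 open. Shapes mark how many loci hold the mature sequences. The Mir124a genes and Mir9-2 lay lowest, and Mir9-3 and Mir9-1 lay between Mir218-2 and Mir218-1.

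Among all genes with a mature sequence placed, 12 had one at exactly 3 loci, and the Mir9 genes held nearly all of their counts. They took 336 of 350 counts in replicate 2 and 510 of 528 in replicate 1, or 96.0% and 96.6%. Of the 9 other genes of this class, 6 had 0 counts in both libraries. The Mir124a genes have no mature sequence in the RefSeq table, so they are in none of the classes by loci. The 3 highest genes beside the members with at least 3 loci were Mir6546 with 1.73 ± 0.388 CPM, Mir199b with 1.65 ± 0.310 CPM and Mir199a-2 with 0.494 ± 0.111 CPM (SD, n = 2 for each). The share of genes with 0 counts in both libraries was 50.0% of the 12 genes with 3 loci, 33.7% of the 83 with 2 loci and 32.3% of the 904 with 1 locus. It was 89.5% of the 19 genes with over 3 loci, whose median level was 0 CPM. Median levels were 0.247 CPM with 3 loci, 11.2 CPM with 2 loci and 0.982 CPM with 1 locus, so the median of the genes with 2 loci lay above that of the genes with 1 locus.

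A finer division, chosen after seeing the data, asked whether a gene keeps any mature sequence of its own. Of 53 genes with every listed mature sequence at several loci, 42 had 0 counts in both libraries (79.2%), against 301 of 965 genes with at least 1 mature sequence at a single locus (31.2%). Of the 23 genes with both arms listed and both at several loci, 17 were at 0 counts. The highest of the 23 were the let-7 genes Mirlet7c-2, with 2978 ± 199 CPM, and Mirlet7a-1, with 308 ± 3.02 CPM, followed by Mir9-3 and Mir9-1 (SD, n = 2).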

How the data were processed

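The authors deposited 1 table of raw read counts for each library, with an unstranded column and a column for each strand. Their deposited notes name mm10 as the assembly and M21 as the genome annotation and derive each table from a single read file, so libraries were not pooled. For the aligner, counter, versions and trimming, the entry is not given in the sources used here. The stranded column with the larger total was used as the sense column. Reads that fit several places were a total of their own and were in no gene count. These totals did not enter library sizes. The replicate numbers and the group came from the labels, and columns of other series numbered 0.

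GENCODE M21 (GRCm38) held all 2202 identifiers and was the source of symbols, positions, hosts and hairpins. A hairpin's host was the shortest annotated gene around it on its strand, with small RNAs and pseudogenes left out. Mature sequences came from RefSeq (GRCm38.p6), whose table held 1005 hairpins. Of these, 968 had a symbol in the count files, and 1018 genes had a mature sequence placed in their own hairpin. Members with such entries numbered 3, the Mir9 genes. A mature sequence's loci were the annotated hairpins that held it exactly, and overlapping genes were counted separately. Windows of 20 bases were searched in all annotated microRNA hairpins on both strands, with overlapping genes taken as 1 place, and no genome sequence was searched. Hairpins were aligned pairwise with Biopython 1.88.

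CPM was computed as counts per 1000000 sense counts on genes. Intervals are exact Clopper-Pearson at the 95% level, and the limit for a count of 0 was 3 counts. Both cover counting error only, and reads without molecular identifiers are not independent molecules. For the comparison of libraries, a binomial test (exact, two-sided, conditional on their totals) was run over genes with at least 10 counts in total, with Benjamini-Hochberg adjustment over all of them. Calls needed an adjusted p under 0.05 and a log2 ratio (replicate 2 over replicate 1, 0.5 counts added) of 1 or more in size. The edgeR quasi-likelihood test needs a contrast of groups and was not used. The makeup of a family was compared by an exact Fisher-Freeman-Halton test. The comparison of libraries was tested on simulated counts with counting error only, less than the spread between these libraries. The Fisher-Freeman-Halton test was checked on a fixed table, and the other steps were not tested in this way.

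The members and lists were chosen with earlier results of these data known. Named genes were the 6 members, the leading genes of the neural list and of the class with at least 3 loci, and the genes nearest in level by Euclidean distance of log2(CPM + 1). Others were named after their values were seen. Alternatives covered TMM sizes (edgeR 4.0.16), DESeq2 1.42.0 size factors, other denominators, unstranded counts, filters, thresholds, window lengths and single replicates. The tools were R 4.3.3, Python 3.11.15, SciPy 1.17.1, pandas 2.3.3, numpy 2.4.6 and matplotlib 3.10.9.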

Additional observations from a re-analysis of the deposited data

How the results depend on the processing

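With reads that fit several places in the denominator, the mean level of the Mir9 genes was 49.3 CPM and that of the Mir124a genes 2.03 CPM. With all reads in the denominator these were 37.2 and 1.53 CPM. Unstranded counts gave 80.5 CPM for the Mir9 genes, a mean Mir9-3 share of 96.0%, and a difference in that share between replicates of -1.99 points (exact p = 0.271), because Mir9-1 has 0 counts in that column. The log2 ratio of the Mir9 sum, -0.14 with library totals, passed the exact binomial test under the other library sizes and denominators tried, at -0.23 with TMM (raw p = 0.0242), -0.31 with DESeq2 size factors (raw p = 0.00209), -0.27 with reads that fit several places (raw p = 0.00849), and -0.31 with all reads (raw p = 0.0021). With unstranded counts, whose sum leaves out Mir9-1, it was -0.50 (raw p = 2.34e-05 by the same exact test). Without the minimum of the log2 ratio, 301 genes and 2 members were called. The share of genes at 0 among the genes with 3 loci was 50.0%, against 33.7% of all 1018 genes with a mature sequence placed. Among genes with every listed mature sequence at several loci, with overlapping genes counted separately, it was 79.2%, an alternative chosen after seeing the data. Among genes whose hairpins share 20 consecutive bases it was 86.8%. That set was drawn from all 2202 genes, of which 63.8% were at 0, and hairpins that share no such window were at 0 in 41.4% of genes. Leaving out each replicate gave 96.1 to 106 CPM for the Mir9 genes, 3.53 to 4.86 CPM for the Mir124a genes and a Mir9-3 share of 61.9% to 81.4%. No paired analysis was possible because the labels give 1 group. The Mir124a genes held 17 counts in each library, which limits what can be told of the order of these genes.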
